A study of Drosophila melanogaster with 2 samples.

Results

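The genes described here encode the dosage compensation machinery of Drosophila melanogaster: msl-1, msl-2, msl-3, mle, mof, Clamp, lncRNA:roX1 and lncRNA:roX2. They were chosen by name, as the protein and RNA components of the male-specific lethal (MSL) complex together with Clamp, and number 8 of the 23973 annotated genes on the 6 chromosome arms. Of these 8, 6 are among the 13945 protein-coding genes and 2 among the 3261 genes classed as ncRNA. Both samples, biological replicates of the same group, are ChIP-seq (chromatin immunoprecipitation followed by sequencing) of whole embryos of 8 to 24 h. That age is the one in the source name, and a separate age label, which gives a time far too long for an embryo, was not used. The embryos came from a transgenic strain, CG9932-GFP, that makes a fusion of the CG9932 protein with eGFP, and an antibody against GFP recovered the DNA. Sex was not collected for these embryos, and whole embryos mix all tissues, so a site bound in 1 sex or 1 cell type cannot be told from a weaker site bound in all. The question was whether, and where, the tagged protein was found at the dosage compensation genes. No untagged or input sample was analysed here, and no condition was set against another.

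In male flies the single X chromosome is transcribed at a raised rate, and the MSL complex carries this out by acetylating histone H4 along active X-linked genes. MSL1 and MSL2 form its scaffold, with MSL2 made in males only, MSL3 reads a histone mark of transcribed genes, MLE is an RNA helicase that loads the roX RNAs, and MOF is the acetyltransferase. The noncoding roX1 and roX2 RNAs are built into the complex near the place of their own transcription, and CLAMP is a zinc-finger protein that binds GA-rich DNA, the kind of sequence at which the complex first attaches to the X.

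The measurements were peaks, each with a summit (its highest point) and a signal, the peak caller's own value for how far the peak stands out. Read depth is not known, so signals were compared within a list only. The conservative set of 6829 peaks keeps those that passed an irreproducible discovery rate (IDR) threshold across both replicates. The own sets of replicate 1 and replicate 2, made from each replicate alone, held 6036 and 4549 peaks. Their median signals were 160 in the conservative set, 111 in replicate 1 and 102 in replicate 2. Each set was drawn from a longer ranked list, of 124532 peaks for the conservative comparison, 103335 for replicate 1 and 115968 for replicate 2, in which weak and poorly repeated peaks remain. Distances run from the nearest annotated transcription start of the gene, and a negative distance lies upstream.

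Conservative summits were found at msl-1 and lncRNA:roX1, and at none of the other 6 genes. The stretches of DNA centred on these summits are shown here because they are the places where the tagged protein was found in both replicates. Both run 5' to 3' on the minus strand, the strand of each gene, and the 11 capitals are centred on the summit. The first spans chr2L:18688774-18688974 (dm6) and ends with the first 27 bases of the msl-1 transcript. The other spans chrX:3862414-3862614 and lies inside the longest annotated roX1 transcript.
msl-1: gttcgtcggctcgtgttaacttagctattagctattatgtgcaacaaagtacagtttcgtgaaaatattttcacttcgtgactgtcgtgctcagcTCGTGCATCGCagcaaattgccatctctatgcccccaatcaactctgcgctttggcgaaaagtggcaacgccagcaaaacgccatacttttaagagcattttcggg
lncRNA:roX1: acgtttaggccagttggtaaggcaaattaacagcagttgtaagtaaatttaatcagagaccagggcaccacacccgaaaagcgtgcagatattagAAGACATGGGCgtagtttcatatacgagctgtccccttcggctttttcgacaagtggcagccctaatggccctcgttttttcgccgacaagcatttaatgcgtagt

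At 2 further sites the evidence was partial, and their sequence is shown for comparison. The Clamp site was in the own set of replicate 1 only, and its window spans chr2L:22168614-22168744 on the minus strand. The roX2 site was in both replicates but lay outside the gene, 64 bp past its 3' end, and its window spans chrX:11580396-11580596 on the plus strand. Capitals again mark the 11 bases centred on the summit.
Clamp, replicate 1: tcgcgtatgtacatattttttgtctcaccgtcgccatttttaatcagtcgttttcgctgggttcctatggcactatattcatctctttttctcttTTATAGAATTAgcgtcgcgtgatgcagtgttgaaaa
lncRNA:roX2, past the 3' end: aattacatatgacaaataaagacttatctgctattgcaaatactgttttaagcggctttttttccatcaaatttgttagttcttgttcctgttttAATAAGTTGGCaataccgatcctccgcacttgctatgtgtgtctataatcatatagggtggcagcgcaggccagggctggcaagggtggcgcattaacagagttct

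Few of the dosage compensation genes had a summit, as was the case for genes at large. A conservative summit lay in the gene or within 2 kb upstream for 2 of 8, where the share was 27.3% of all annotated genes (95% Wilson interval 26.8 to 27.9). By class, 1 of the 6 protein-coding members had one, against 40.0% of all protein-coding genes. Among the 3586 protein-coding genes in the length range of these 6 members (2321 to 5922 bp) the share was 46.1%. Of the roX genes 1 of 2 had one, against 17.1% of ncRNA genes. The numbers were the same for promoters, where a summit had to lie within 500 bp of a start. There 2 of 8 members stood against 19.0% of all annotated genes, 29.9% of protein-coding genes and 8.03% of ncRNA genes. Of the 5 autosomal members, all of them protein-coding, 1 had a promoter summit, against 29.3% of autosomal protein-coding genes. On X, mof, the only protein-coding member, had none, against 32.9% of X-linked protein-coding genes, and the X-linked member with a summit was the ncRNA gene roX1. With 8 members, these counts do not set the group apart from genes at large. In the replicates' own sets the counts were 3 of 8 for replicate 1 (26.4% of all annotated genes, 38.8% of protein-coding ones) and 2 of 8 for replicate 2 (21.7% and 32.2%), with Clamp as the additional gene of replicate 1.

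**Figure D1:**
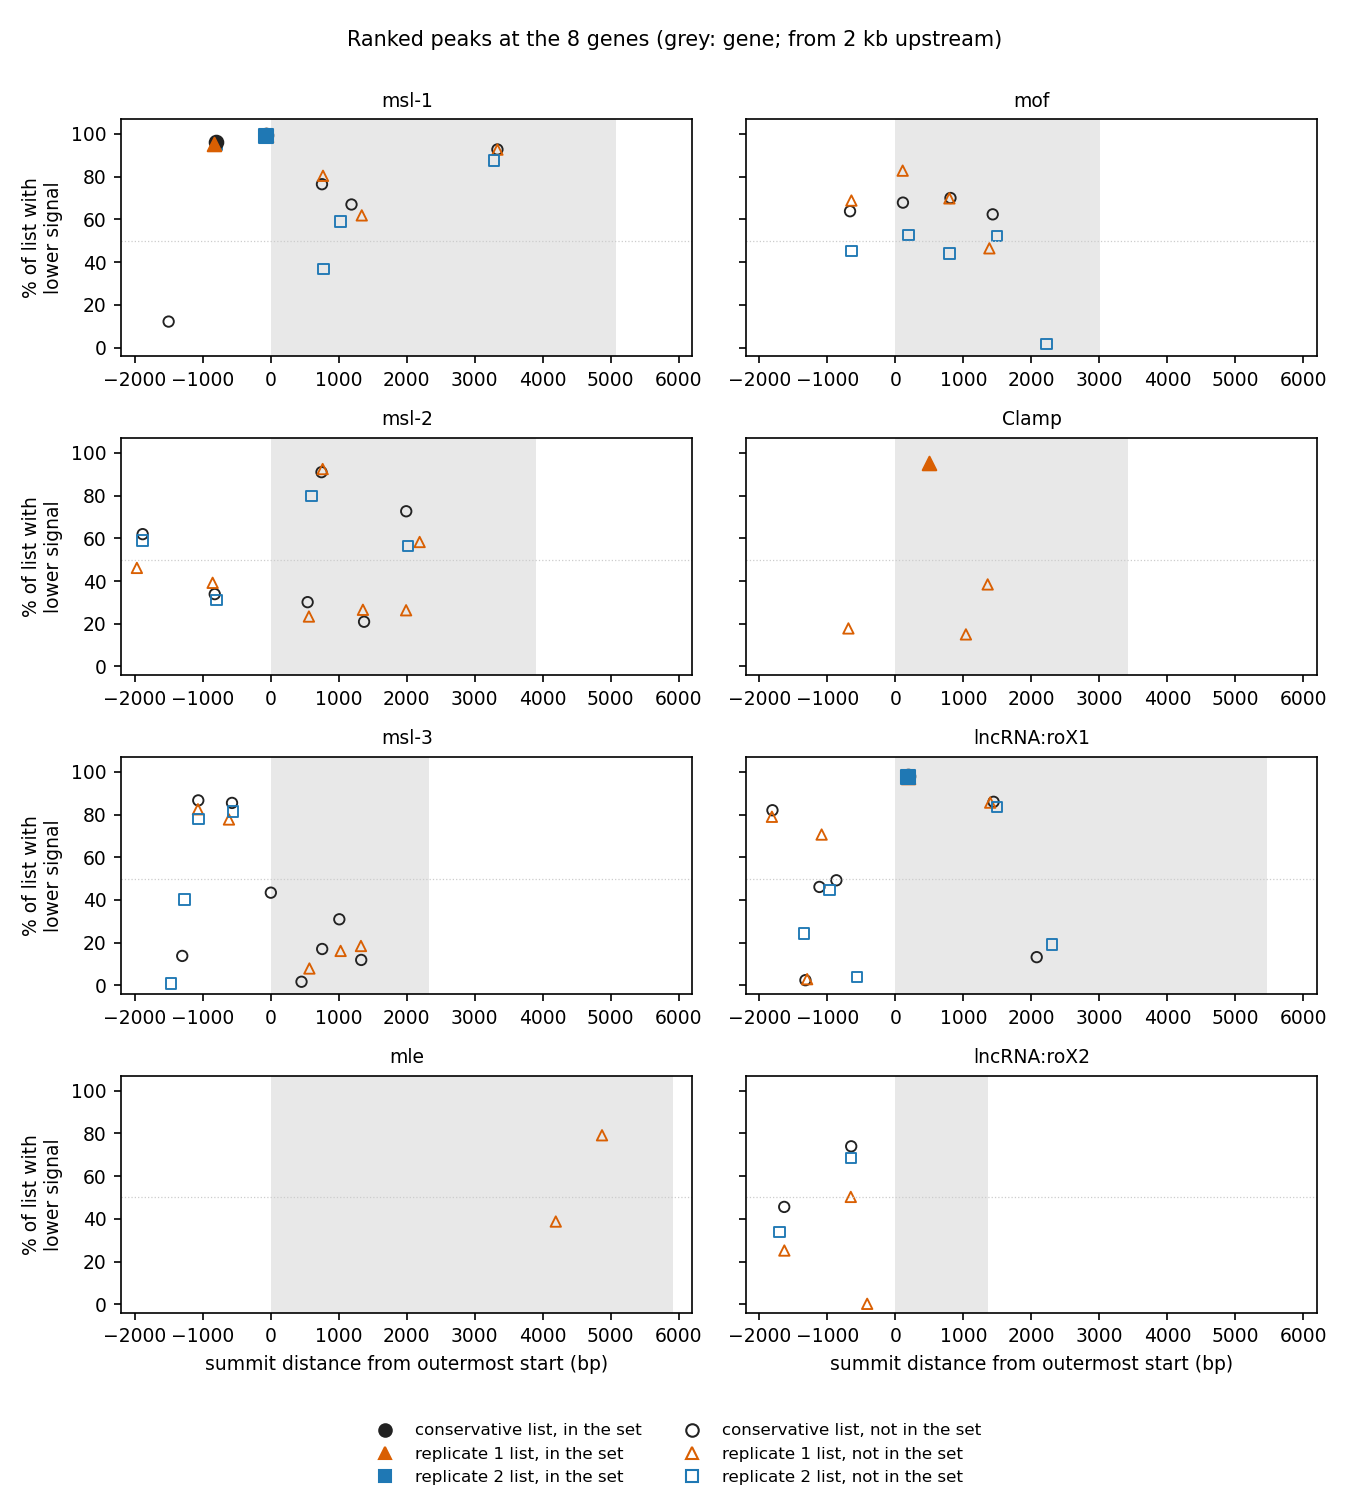
Each panel shows 1 gene, with the distance of peak summits from its outermost annotated start in bp on the horizontal axis and, on the vertical axis, the percent of peaks in the same ranked list that have a lower signal. Filled symbols are peaks that passed into the set of that list, open symbols are ranked peaks that did not, and the gene is shaded. Filled symbols of all 3 lists coincide next to the msl-1 start and at roX1, and Clamp has a filled symbol in replicate 1 alone.

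msl-1, the gene of the scaffold protein, carried the strongest peak of the group. The gene lies on the minus strand of 2L (FBgn0005617, 18683720 to 18688800), with 1 annotated start. The conservative summit was at 18688874, in intergenic sequence 74 bp upstream of that start, in a peak of 229 bp (18688760 to 18688988). Its signal of 596 ranked 665 of 6829, so 90.3% of conservative peaks were weaker. In replicate 1 the summit was at -71 bp with a signal of 377 (rank 578 of 6036, 90.4% weaker). In replicate 2 it was at -75 bp with a signal of 220 (rank 846 of 4549, 81.4% weaker). The 3 summits thus lay within 4 bp of each other, and over 80% of peaks were weaker in each of the 3 sets. Among the 4163 protein-coding genes with a promoter summit, 771 had a stronger one than msl-1. The genes next to it in rank were Ipk2 and cold, which share 1 summit of signal 597, and dlg1 with a signal of 594. Only the msl-1 start lay within 500 bp of the msl-1 summit. The start of CG10336, which is transcribed the other way, is 728 bp from that of msl-1 and 654 bp from the summit.

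A second conservative summit counted for msl-1 by the 2 kb rule but belonged by position to the neighbour. It lay at 18689607 (peak 18689422 to 18689791), 807 bp upstream of the msl-1 start and in the 5' UTR of CG10336, 79 bp inside the first start of that gene and 84 bp before the other. Its signal was 116, rank 4577, with 33.0% of conservative peaks weaker. In replicate 1 it was in the own set with a signal of 70.0 (rank 4576 of 6036). In replicate 2 it reached only the ranked list, with a signal of 45.0 and an IDR score of 829, where 830 was the lowest score in any of the sets. The sources used here do not state the full rule by which the sets were drawn. Within the msl-1 gene body the ranked list held 3 more summits, the highest at +3333 bp in a coding exon with a signal of 72.0 and a score of 695, and none of them passed.

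The roX genes encode the RNA parts of the complex, and they differed in where the peak lay. lncRNA:roX1 (FBgn0019661, X, 3857230 to 3862697, minus strand) has 3 annotated starts, at 3862697, 3862425 and 3862061. The conservative summit, at 3862514, fell between the outer 2 of them. It was 183 bp downstream of the outermost start and 89 bp upstream of the middle one, and it lay in an exon of the longest transcript. The peak of 370 bp (3862329 to 3862698) had a signal of 233, rank 2375 of 6829, with 65.2% of peaks weaker. In replicate 1 the signal was 139 (rank 2390 of 6036, 60.4% weaker) and in replicate 2 it was 80.2 (rank 2914 of 4549, 35.9% weaker), with summits 4 and 3 bp from the conservative one. Both replicates placed the site at nearly the same bases, but it stood in the upper part of the replicate 1 set and in the lower part of the smaller replicate 2 set. In the longer ranked lists its place was alike, with 97.6% of peaks weaker in replicate 1 and 97.4% in replicate 2. Of the 4163 protein-coding genes with a promoter summit, 2317 had a stronger one. The nearest protein-coding start, that of yin, was 4203 bp away. In rank the site stood next to the shared summit of Hmgs and Vha44 (signal 233) and to CG11263 (also 233). A weaker ranked summit in the roX1 exon, 807 bp downstream of the innermost start, had a signal of 54.5 and did not pass.

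lncRNA:roX2 (FBgn0019660, X, 11579065 to 11580432, plus strand) had no set summit in the gene or upstream of it. The strongest ranked summit there was at -651 bp, over a coding exon of CG11695, with signals of 41.8 in the conservative list, 17.8 in replicate 1 and 21.3 in replicate 2. A conservative peak lay instead at its other end. It spanned 11580416 to 11580557 (142 bp), so it overlapped the last bases of roX2, and its summit at 11580496 was 64 bp past the 3' end and 276 bp upstream of the start of nod, a kinesin-like gene. The signal was 267, rank 2043, with 70.1% of conservative peaks weaker. In replicate 1 the signal was 123 (rank 2703 of 6036, 55.2% weaker), with the summit 97 bp past the end, and in replicate 2 it was 121 (rank 1850 of 4549, 59.3% weaker), again at 64 bp. This peak ranked above that of roX1 in the conservative set and in replicate 2, and below it in replicate 1. It lay within 500 bp of the nod start, and the peak lists do not say which of the genes it belongs to.

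GA repeats, which CLAMP and the MSL complex are known to bind, lay close to the roX2 site without being part of it. The letters GAGAGAGA, searched on both strands in the gene and 2 kb upstream, occurred in 2 runs in roX2, in 1 run each in msl-1 and mle, and in none of the other 5 genes. Of all protein-coding genes, 23.6% held at least 1 run. The roX2 runs are shown because they sit in the transcribed part of the gene next to the 3' peak, at chrX:11580193-11580240 and chrX:11580247-11580294, plus strand, with the run in capitals (the first reads on the opposite strand).
lncRNA:roX2, first run: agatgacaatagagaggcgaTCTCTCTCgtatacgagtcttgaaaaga
lncRNA:roX2, next run: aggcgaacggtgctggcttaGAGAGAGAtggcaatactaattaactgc

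These runs lay 280 and 226 bp from the conservative summit at 11580496, outside the window shown for it. The msl-1 run was in a coding exon, 2674 bp from the nearest conservative summit.

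Clamp, whose product binds GA-rich DNA at the X and elsewhere, was called in 1 replicate. The gene lies on 2L (FBgn0032979, 22165720 to 22169143, minus strand) with 1 start. In the set of replicate 1 a summit lay at 22168644, at +499 bp, just inside the 500 bp reach of the promoter rule, and at the last base of the first intron. Its signal was 66.0, rank 4798 of 6036 with 20.5% of the set weaker, and its IDR score was 952. In the interval of Clamp, the ranked lists of the conservative comparison, of the optimal comparison and of replicate 2 held no summit at all, and that of replicate 1 held 4. The nearest ranked summit of replicate 2 was 12.2 kb upstream, with a signal of 22.1. The nearest conservative set summit was 149.9 kb away, at tio. The Clamp peak thus rested on replicate 1 alone.

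mle, the helicase gene, had no set summit by any list. It lies on 2R (FBgn0002774, 5974857 to 5980778, minus strand). The ranked lists had 2 summits in its interval in replicate 1, the stronger with a signal of 28.5 and a score of 50, and none in replicate 2, the conservative or the optimal list. A conservative summit lay at 5974493, 364 bp past the 3' end of mle and 108 bp upstream of the start of BubR1, a spindle checkpoint gene, with a signal of 494 (rank 903). Replicate 1 had it in its own set with a signal of 280. The ranked list of replicate 2 had no peak there, and its summit nearest to the mle start was 18.992 kb away.

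At mle and Clamp even weak ranked summits were missing from the conservative list and from that of replicate 2. No summit of the conservative ranked list lay in the gene or 2 kb upstream for 2 of the 6 protein-coding members, mle and Clamp. This was so for 14.0% of all protein-coding genes. In replicate 1 this held for none of the 6, against 12.5%, and in replicate 2 for the same 2 genes, against 12.3%. Both roX genes had ranked summits in each of these lists. The surroundings of mle and Clamp were also low. In the 100 kb around each gene the conservative ranked list had 16 summits at mle and 11 at Clamp, and 84 to 130 at the other 6. Over the 1330 windows of 100 kb along the arms the median was 96 and the 5th percentile 19. Replicate 1 had 18 at mle and 20 at Clamp (median 83, 5th percentile 16), and replicate 2 had 46 and 35 (median 92, 5th percentile 22). Both genes were thus below the 5th percentile in the conservative list but above it in each replicate's own list. In windows of 50 kb neither was below the 5th percentile of the conservative list, and in windows of 200 kb Clamp alone was. Whether reads could be placed in these stretches as well as elsewhere was not tested, so the lack of a peak at mle and Clamp is not a measure of absent binding.

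**Figure D2:**
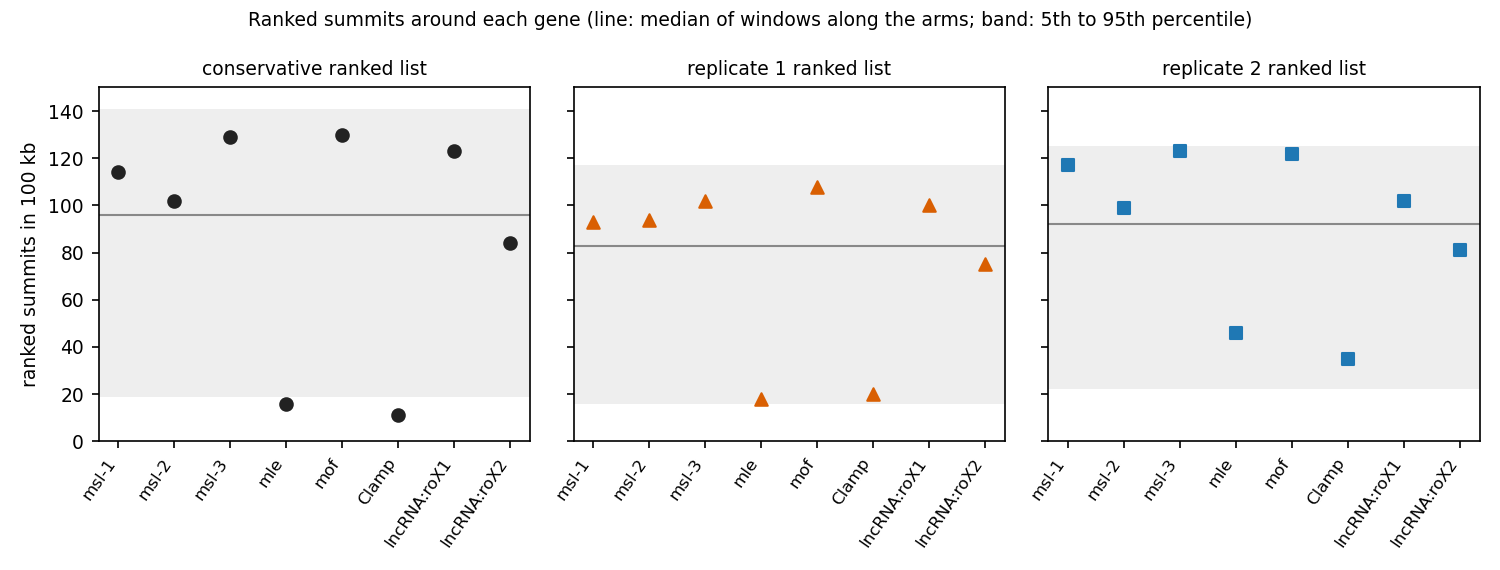
Number of ranked summits in the 100 kb around each of the 8 genes (vertical axis), in the conservative, replicate 1 and replicate 2 ranked lists (panels), with the line at the median and the band from the 5th to the 95th percentile of 100 kb windows along the arms. mle and Clamp lie lowest in each panel, with 16 and 11 in the conservative list, and the other 6 genes lie near or above the median.

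msl-2, msl-3 and mof had ranked summits but none that passed. msl-2, whose protein is the male-limited scaffold partner, lies on 2L (FBgn0005616, 3462218 to 3466112, minus strand), and its start is 45 bp from that of ND-PDSW, a gene of respiratory complex I transcribed the other way. Its strongest summit in the conservative ranked list was at +746 bp in a coding exon, with a signal of 65.1 (rank 11249 of 124532) and a score of 341. Replicate 1 had 45.6 at +763 bp (score 50) and replicate 2 had 26.0 at +600 bp (score 45). No summit of these lists was nearer to the msl-2 start than 542 bp. The nearest conservative set summit was 6344 bp upstream, at the promoter of Pgant4 (signal 432).

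msl-3, the gene of the chromodomain subunit, lies on 3L (FBgn0002775, 7123213 to 7125533, minus strand). Its strongest ranked summits were upstream, over BBS1, at -1066 bp (signal 55.6, score 403) and -570 bp (signal 53.7, score 421), and the one at its own start, at +1 bp, had a signal of 24.0 and a score of 34. The strongest were 30.7 in replicate 1 and 26.8 in replicate 2. The nearest conservative set summit was 7010 bp away, in a coding exon of form3 (signal 97.6).

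mof, the gene of the acetyltransferase, lies on X (FBgn0014340, 5873840 to 5876853, minus strand). Its ranked summits at +809 and +110 bp had signals of 38.9 and 37.4 and scores of 109 and 100. Replicate 1 had 31.0 at +106 bp (score 294) and replicate 2 had 16.5 at +192 bp (score 18). The nearest conservative set summit, 2793 bp upstream of the start, was at the promoter of Usp30, with signals of 259 in the conservative set, 155 in replicate 1 and 98.5 in replicate 2. The scores given for all 3 genes were below the 830 that the sets required.

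The sequence at the bound sites was searched for 6 short motifs on both strands, 100 bp either side of the summit. They were GAGAG and its longer form GAGAGAGA (which overlaps it), TATCGATA (the DNA replication-related element), GGTCACAC (the core of Motif 1, a core promoter element), CAGCTG (an E-box) and TATAAA (the TATA box). None was found at the msl-1 promoter summit, the second summit upstream of msl-1 or the roX1 summit. Among all 6790 conservative summit windows on the arms, 43.2% also held none. The shares that held each were 23.6% for GAGAG, 1.86% for GAGAGAGA, 5.43% for TATCGATA, 3.17% for GGTCACAC, 10.5% for CAGCTG and 29.0% for TATAAA. Of the sites with partial evidence, the Clamp window of replicate 1 held TATAAA, on the opposite strand, at -6 bp from the summit. The roX2 window past the 3' end held none of the motifs. The G and C content of the windows was 45.8% at msl-1, 42.3% at its second summit and 46.3% at roX1, each above the median of 38.3% over all summit windows (quartiles 33.3 and 45.8).

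Motif 1 stood instead at starts without a conservative peak. GGTCACAC lay within 100 bp of a start in msl-2, msl-3, Clamp and roX2, that is in 4 of the 6 members without a conservative summit in gene or promoter and in 0 of the 2 with one. Over all protein-coding starts, 8.76% of those with a conservative summit within 500 bp held it (95% Wilson interval 8.03 to 9.56). Of those without such a summit, 4.52% held it (4.19 to 4.88). These shares are of single starts and leave out the roX genes, while the member counts are of genes and include them. The 2 comparisons are therefore not of the same kind, and the difference in their order was not tested. The matches are shown with 11 bases on each side, along the strand of the gene, with the motif in capitals. In all 5 it reads in the direction of transcription. They lie at chr2L:3466119-3466148 and chr2L:3466069-3466098 (msl-2), chr3L:7125615-7125644 (msl-3), chr2L:22169159-22169188 (Clamp) and chrX:11579065-11579094 (roX2). The roX2 gene and sequence are on the plus strand, and the others on the minus strand.
msl-2, -25 bp: ttcgaggtagtGGTCACACctatgccgcac
msl-2, +25 bp: tggcacactgcGGTCACACtggcttcgctc
msl-3, -100 bp: gcattttgtctGGTCACACttaaggccggc
Clamp, -34 bp: agtcgtgaaacGGTCACACttttaaaaagt
lncRNA:roX2, +11 bp: attcgcggcctGGTCACACtaagctagggc

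The other motif matches at starts were few. TATCGATA lay at -47 bp in msl-3 (found at 11.5% of protein-coding starts with a summit and 4.54% of those without). CAGCTG lay at -42 bp in msl-2 and GAGAG at +33 bp in Clamp. The letters TATAAA lay at +16 bp in msl-3, at +35 bp in roX2, and at -92 and +89 bp from the outermost mle start. The starts of msl-1, mof and roX1 held none of the 6. These are matches of letters and no measure of binding by the factors that recognise them.

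Genes related to the MSL complex by function, family or pathway were looked at in 4 further lists. Of the MSL partners, proteins and RNA-binding factors tied to its action or to its genes, 10 of the 11 found in the annotation had a conservative promoter summit, against 29.9% of protein-coding genes. The strongest of these promoter summits were at JIL-1, a kinase of histone H3 that is enriched on the male X (signal 862, -43 bp), Trl, the gene of the GAGA factor (801, +111 bp), and Unr, an RNA-binding regulator of msl-2 mRNA (526, -59 bp). Outside the promoter reach, at -1536 bp from its nearest start, Trl had a stronger conservative summit, with a signal of 2926 and rank 21. E(bx), a subunit of the NURF remodeller, had none. Replicate 1 had 9 of these genes and replicate 2 had 8, with 8 in both.

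The NSL complex, which shares MOF with the MSL complex and acts in both sexes, had 3 of 6 genes with a promoter summit. The share of all protein-coding genes was 29.9%. They were Rcd5 (signal 641), nsl1 (197) and wds (97.8), and dgt1, MBD-R2 and Rcd1 had none. Outside the promoter reach, at -1153 bp, nsl1 had a stronger conservative summit, with a signal of 251 and rank 2175. Replicate 1 had a promoter summit at 3 of the genes and replicate 2 at 2, without wds. Of the paralogs of mof and msl-3, 3 of 5 had a promoter summit, against the same 29.9%. They were the acetyltransferase genes chm (401), Tip60 (161) and enok (147), but not CG1894 and MRG15. There replicate 1 had 4, with MRG15 among them, and replicate 2 had 2, without enok.

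Genes of sex determination and X chromosome counting had a promoter summit in 10 of 20, against 29.9% of protein-coding genes. The corepressor gene gro came first (signal 977), followed by fl(2)d, whose product takes part in Sxl splicing (513), and da, a bHLH activator of Sxl (293), while dpn and dsx were among the 10 without. Replicate 1 also had 10 and replicate 2 had 6, with 6 in both. In the own set of replicate 2, da had no promoter summit. Sxl, named here after its values were seen because its protein blocks msl-2 translation in females, had a summit at +367 bp with signals of 253 in the conservative set, 153 in replicate 1 and 110 in replicate 2. The lists hold 5 to 20 genes, each count is a description, and none was tested.

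**Figure D3:**
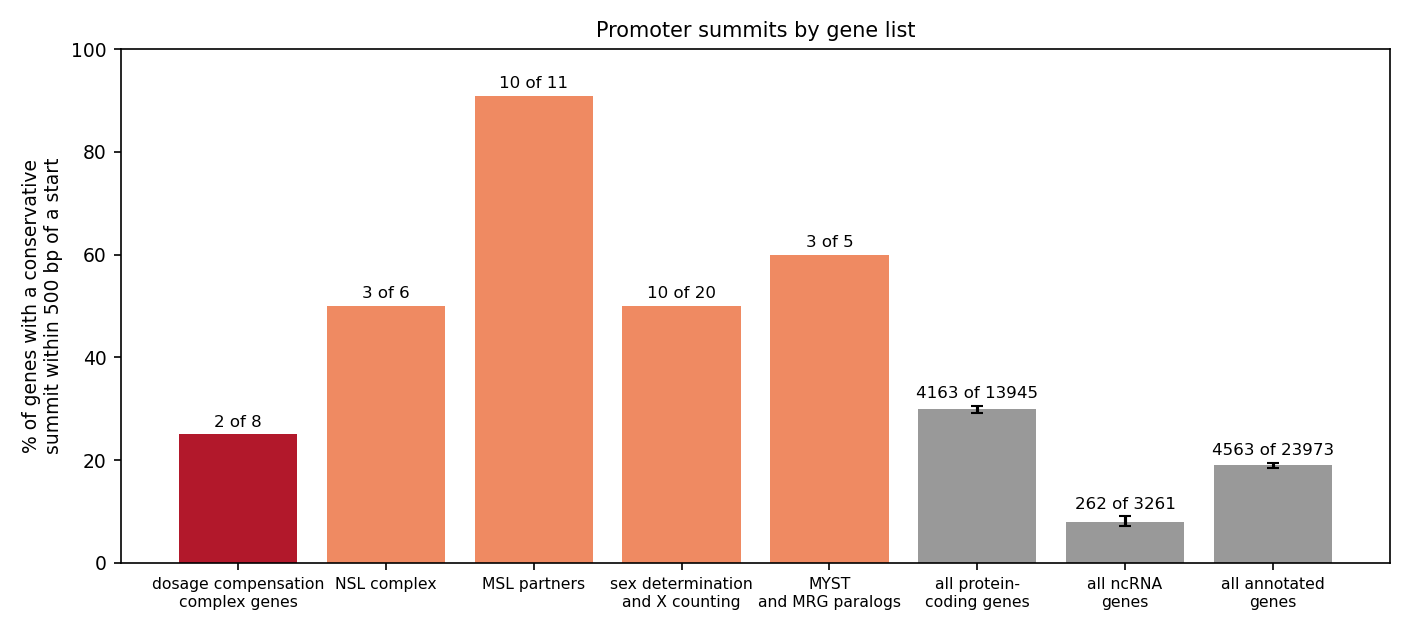
Percent of genes with a conservative summit within 500 bp of a start (vertical axis) for the 8 dosage compensation genes, the 4 related lists and all genes by class, with the counts above the bars and 95% Wilson intervals on the grey bars. The dosage compensation genes, with 2 of 8, lie between all annotated genes (19.0%) and all protein-coding genes (29.9%), and the MSL partners, with 10 of 11, lie highest.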

How the data were processed

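Per the labels, 2 biological replicates of whole embryos (8 to 24 h, from the source name) carrying CG9932-eGFP were sonicated to 200 to 800 bp and precipitated with an anti-GFP antibody. The authors deposited 8 peak lists on dm6, 4 ranked and 4 past an IDR threshold. Neither aligner nor caller is given in the sources used here. The deposited signal values are the caller's own, the deposited score is that of the IDR (830 or more in each set), and the deposited −log10 values give the global IDR. A further 26 value columns were not used.

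The genes and related lists were chosen with earlier results of these data known. Genes came from Ensembl release 115 (BDGP6.54) and sequence from the RefSeq genome of the same assembly, in which all 8 members had the same ends; 1 symbol, Mtor, was not found. A summit counted for a gene when it lay in it or within 2 kb upstream, and for a promoter within 500 bp of any start, so 1 summit can count for several genes. Peaks of 2 lists were matched by an overlap of at least 1 bp. No test was run: counts stand beside shares of all genes, whose Wilson intervals cover counting error only. Depth is unknown and no SD is given for 2 replicates. Named were all members, genes with a start near a member's promoter summit, the coding genes next in rank, and in each list the 3 strongest and the first 2 without a summit in alphabetical order; Sxl, tio, Pgant4 and others nearest to a summit are named for position or as stated. The search for Motif 1 by presence of a summit, and of words and 100 kb windows, was added after seeing the data. The assignment steps were tested on simulated data. Software: matplotlib 3.10.9, scipy 1.17.1, pandas 2.3.3 and numpy 2.4.6, run under Python 3.11.15.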

Additional observations from a re-analysis of the deposited data

How the results depend on the processing

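With 2 replicates of 1 group, no depth and no control, the lists cannot say how strongly a gene without a peak was bound. msl-1 and roX1 kept their promoter summit in the optimal set, in each replicate's own set, among the peaks above the median signal, by peak centres and with promoters of 200 or 1000 bp. The count of 2 genes became 4 with 5 kb upstream, adding mof and roX2, and 3 by overlap, adding roX2; the replicates' own sets gave 2 to 3. The share of all annotated genes, 27.3%, was 28.7% in the optimal set, 21.7% to 26.4% in the replicates' own sets, 18.9% with peaks above the median signal, 24.2% and 35.6% with 1 and 5 kb upstream, and 28.2% by overlap. The promoter share, 19.0%, was 20.0% in the optimal set, 15.1% to 19.1% in the replicates' own sets, 13.5% with peaks above the median signal, and 14.2% and 22.7% within 200 and 1000 bp. Sex determination genes with a promoter summit numbered 6 to 10 in the replicates' own sets. No paired analysis was possible because the series has 1 group and no result comes from a test. In windows of 50 and 200 kb, chosen after seeing the data, mle had 5 and 109 ranked summits and Clamp 5 and 39, where the medians were 49 and 195 and the 5th percentiles 5 and 48.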

Other observations

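The sequence at the msl-1 and roX1 summits was also compared without a fixed motif, after the values were seen. The 2 windows shared 4 words of 8 letters, on either strand: AAGTGGCA, ACGAGCTG, CCCGAAAA and GGCGAAAA. None was particular to summits, since AAGTGGCA, for example, occurred in 1.08% of all summit windows, 1.05% of windows 500 bp away and 1.07% of start windows. The words of 7 letters that were most frequent at all summits relative to windows 500 bp away included ATCGATA (11.2% against 2.52%). This word is part of the DNA replication-related element and was in 12.7% of start windows, a larger share than at summits. Also included was ACAGTGG (8.11% against 2.75%), which was in 2.28% of start windows. Of the 25 leading words, the msl-1 promoter window held 0, as did 49.0% of all summit windows. The roX1 window, the roX2 window past the 3' end and the Clamp window of replicate 1 held 2 each.

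The site past the 3' end of mle, at the BubR1 promoter, was in the conservative set with rank 903 and a signal of 494 although the ranked list of replicate 2 had no peak there. The same list had 46 summits in the 100 kb around mle.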
